A study of Mus musculus with 24 samples.

Results

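The subject is the cytosolic ribosomal protein genes, which encode the protein part of the ribosome. Every gene of the deposited table was taken whose symbol reads Rpl or Rps followed by a number with or without a final a, or is Rplp0, Rplp1, Rplp2 or Rpsa. This rule matched 75 of 25239 genes, of which 46 encode proteins of the large (60S) subunit and 29 proteins of the small (40S) subunit. RNA was sequenced from primary mouse tracheal epithelial cells, grown from the trachea of FVB/NJ wild-type animals 7 to 8 weeks old. The cells had 10 to 14 days of air-liquid interface culture, in which basal, secretory and ciliated cells form, followed by 10 days of humidified air or of cigarette smoke (2 cigarettes, lit for about 8 minutes, at each exposure). Female cells in air (6 culture inserts), female cells in smoke (6), male cells in air (6) and male cells in smoke (6) form the 4 groups, and strain and culture method were the same in all of them. The labels name no donor animals, so the inserts may be technical replicates and the p-values measure only the spread between them. The question asked of these genes was whether smoke moved them in cells of either sex.

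A ribosome is built in the nucleolus from ribosomal RNA and one copy of most ribosomal proteins, so cells make these proteins in matched amounts. Their messenger RNAs are abundant and short and begin with a run of pyrimidines, the terminal oligopyrimidine tract, through which the mTOR pathway and the protein Larp1 control their translation. In growing or regenerating epithelium the demand for ribosomes rises with protein synthesis, and free ribosomal proteins such as Rpl5 and Rpl11 can bind Mdm2 and stabilize p53.

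The sequences around the start of transcription are shown for the 6 genes that rose with smoke in both sexes in the tests below and have an entry in the RefSeq promoter table (GRCm38.p6), and for Rpl22, the gene with the lowest female fold change when 2 female libraries were left out. Each line holds 30 bases, 15 before the annotated start and 15 from it, 5′ to 3′ on the gene's strand. Capitals mark the longest run of C and T.
Rps2: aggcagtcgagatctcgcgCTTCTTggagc
Rpl41: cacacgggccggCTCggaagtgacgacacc
Rplp0: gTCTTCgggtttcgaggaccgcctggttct
Rpsa: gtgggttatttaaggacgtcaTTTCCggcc
Rpl18: tgcgtctcgcaggccgCTCTTTCCCCgccc
Rpl19: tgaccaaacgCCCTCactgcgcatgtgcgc
Rpl22: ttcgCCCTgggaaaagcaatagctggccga

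The Rps2 window lies at chr17:24720048-24720077 on the plus strand, that of Rplp0 at chr5:115559452-115559481 on the plus strand and that of Rpl41 at chr10:128549154-128549183 on the minus strand. The windows of Rpsa (chr9:120127751-120127780), Rpl18 (chr7:45718056-45718085), Rpl19 (chr11:98026695-98026724) and Rpl22 (chr4:152325711-152325740) are all on the plus strand. Unlike the others, the Rpl22 window does not lie at the first base of its gene. In the deposited mm10 annotation Rpl22 has 5 transcripts and begins upstream, at chr4:152324436. Rpl18 shows a tract of 10 pyrimidines directly after its start, whereas the longest run in the Rpl41 window is 3 bases. An entry was found for 55 of the 75 genes, and where a gene had several the first listed was read. A run of at least 8 C or T letters, searched on the gene's own strand, stood in the 30-base window of 23 of these 55 genes (41.8%) and of 11.9% of the 27025 genes in the promoter table. The core CCGGAA that ETS-family factors bind, searched on both strands in the 300 bases from 250 before to 50 after the start, was found in 28 of the 55 (50.9%) and in 15.2% of all genes. These matches describe letters only. Rps2, Rpl41, Rpsa, Rpl18 and Rpl19 hold the CCGGAA core while Rplp0 and Rpl22 do not. For Rpl22 this covers only the start that was read.

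Between 16038813 and 24485024 reads per library were counted in genes, in the 23 libraries where whole reads could be recovered. In 2 libraries, female air insert 1 and female smoke insert 4, the normalised counts trended most strongly with transcript length. Differences from a gene's group median, here and below, use all 6 inserts of the group, these 2 libraries included. Across the 13549 genes tested, this difference had a Spearman correlation with length of -0.68 in the first and -0.43 in the second. The correlation lay between -0.14 and 0.33 in the other 22 libraries. Female air inserts 4, 5 and 6, which stay in all fits, had the highest values, at 0.24, 0.27 and 0.33. Genes of at most 1000 bases were low there, with median differences of -0.09, -0.11 and -0.11. Ribosomal protein transcripts are short, with a median annotated length of 725 bases against 2856 for all genes tested. The counts called are therefore given with all 24 libraries and without female air insert 1 and female smoke insert 4. The values of single genes are from the fit without these 2 unless all 24 are named. Both are from a limma fit on log2 of the normalised count plus 1, with p-values adjusted by the Benjamini-Hochberg method over all genes tested and called under 0.05.

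The ribosomal protein genes took 13.4% of all normalised counts in female air insert 1 and between 2.57% and 3.69% in the other 5 female air inserts. They took 7.02% in female smoke insert 4 and between 3.16% and 3.69% in the other 5 female smoke inserts. The male air inserts lay between 3.14% and 3.57%, with a median of 3.29%, and the male smoke inserts between 3.39% and 4.29%, with a median of 3.78%. Without the 2 libraries the female medians were 3.11% in air and 3.36% in smoke, and the groups overlapped in both sexes. The order of female air inserts 2 and 3 above inserts 4 to 6 was shared by nearly all members. In inserts 2 and 3, 70 of the 71 genes tested stood above their group median, against 1, 0 and 1 in inserts 4, 5 and 6.

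**Figure D1:**
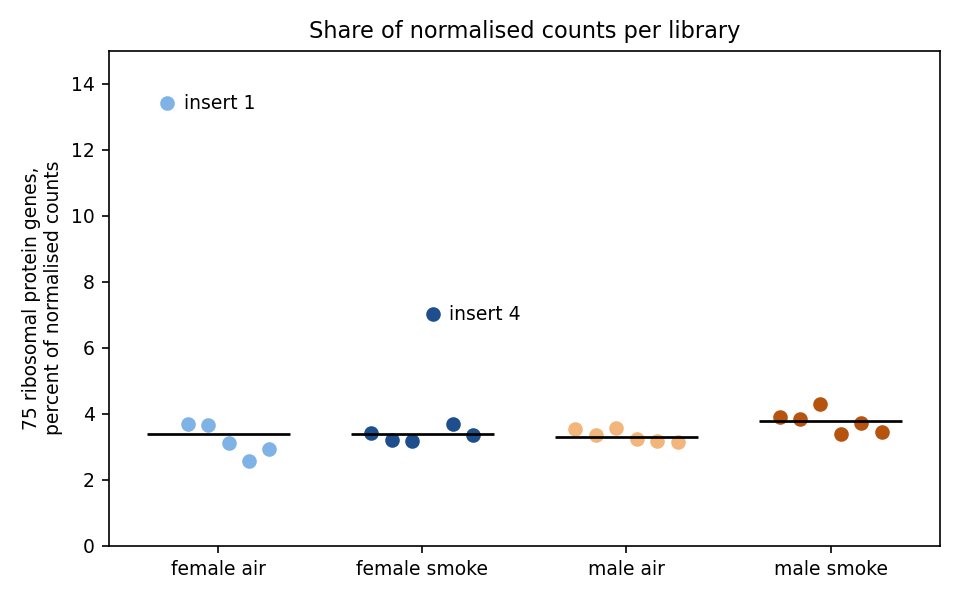
Share of all normalised counts taken by the 75 ribosomal protein genes (vertical axis, percent) in each of the 24 libraries, with 1 point per insert and a line at the median of the 6 inserts of a group. Female air insert 1 stands at 13.4% and female smoke insert 4 at 7.02%, while all other points lie between 2.57% and 4.29%.

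In female air insert 1 each of the 71 genes tested was above its group median, by 2.42 at the median on the log2 scale and by 0.66 to 3.57 over the genes. In female smoke insert 4 all 71 were again above it, by 1.20 at the median and by 0.83 to 1.55 over the genes. Short genes of all kinds were high in these libraries. Among the 990 genes tested with transcripts of at most 1000 bases the median deviation was 1.91 in female air insert 1 and 0.71 in female smoke insert 4, and the 51 ribosomal protein genes of that length stood at 2.43 and 1.20. Among genes over 1000 and up to 2000 bases the median of all 3083 was 0.79 in female air insert 1, against 2.22 for the 16 ribosomal protein genes. At their median the ribosomal protein genes thus stood above genes of like length in both libraries. The part that transcript length had in these values was not tested.

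**Figure D2:**
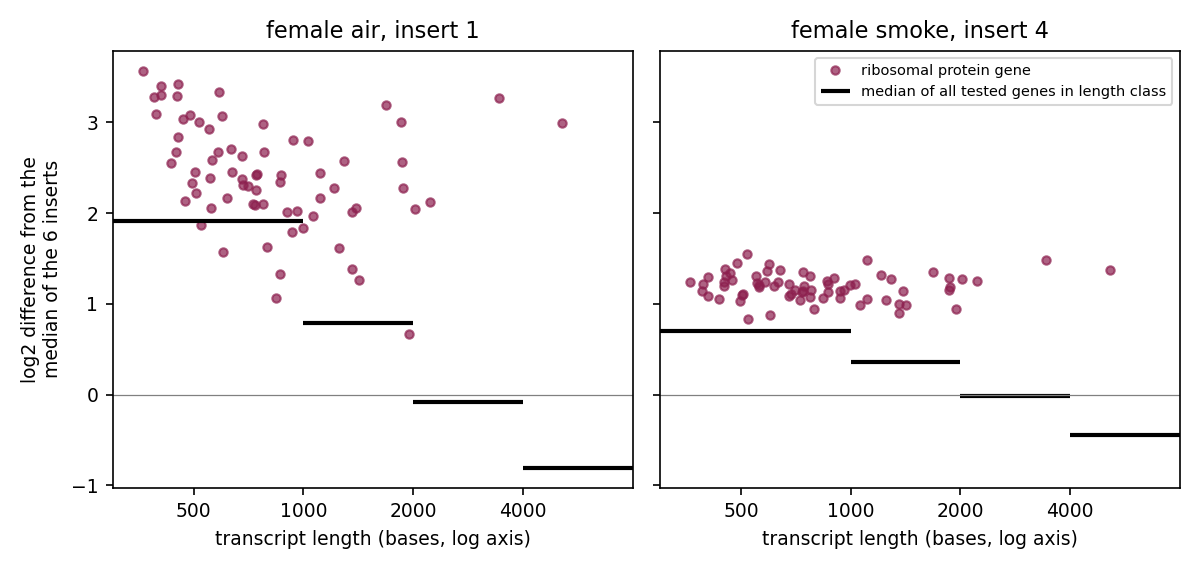
Log2 difference of each ribosomal protein gene (points) from the median of the 6 inserts of its group against transcript length (log axis, bases), in the 2 libraries whose values trend most with length. Black bars give the median of all tested genes in 4 length classes, which falls from 1.91 to -0.81 in female air insert 1 and from 0.71 to -0.44 in female smoke insert 4, and most points lie above the bar of their class.

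Of the 75 genes, 71 had a mean of at least 10 normalised counts and were tested, 43 of the large and 28 of the small subunit. Rpl26, a protein at the peptide exit tunnel, was listed at 0 in all 24 libraries. The other untested genes were Rpl30, Rpl34 and Rps27, with means of 5.71, 5.93 and 6.39 normalised counts. In the deposited mm10 gene annotation each of these 4 shares most of its exon bases with another gene, counted without regard to strand. That share was 95.8% for Rpl26 with Gm15772, 76.0% for Rpl30 with Gm12191, 59.9% for Rpl34 with Rpl34-ps1 and 60.0% for Rps27 with Rps27rt. All 4 partner genes were listed at 0 in all 24 libraries. Among the 71 genes tested the largest such share was 47.7%, for Rpl5 with Dipk1a. The low values of these 4 genes are therefore given as counts of this table, and whether the overlap set them was not tested. Many ribosomal protein genes also have processed copies in the genome. The median share of 50-base words that a tested gene shared with other GENCODE genes was 35.1%, and that of the 4 untested genes 33.3%. Across the 75 genes this share had a Spearman correlation of 0.07 with the mean count. Whether reads of such stretches were split or lost was not tested.

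The remaining genes were among the most abundant in these cells. Per kilobase of transcript and over the 22 libraries other than those 2, the median ribosomal protein gene stood at 9908 normalised counts and the median gene tested at 190.3. A total of 66 of the 71 lay above the 95th percentile of all genes tested. The highest were Rplp1 at 42224 and Rplp0 at 24274 per kilobase, both of the acidic stalk that recruits elongation factors, with Rpl41, a very short basic protein, between them at 31128. The lowest were Rpl29, a heparin-binding protein of the large subunit, at 135.2, and Rpl35a at 1125 per kilobase. Their median coefficient of variation over the 22 libraries was 12.04%, against 23.7% for all genes tested. Among the members it ran from 8.62% for Rpl10 to 25.1% for Rps2. The genes compared were not matched for count level, and the part of abundance in this difference was not tested.

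With all 24 libraries none of the 71 genes passed the limma test for smoke against air in females, where 15.5% of all genes tested were called higher and 19.3% lower. The members' median log2 fold change was -0.07 and that of all genes was -0.00. None had an unadjusted p under 0.05, and edgeR and DESeq2 on the recovered reads also called none. In males none of the 71 passed, against 9.76% of all genes called higher and 12.2% lower. There 2 had an unadjusted p under 0.05, edgeR and DESeq2 called none, and the median was 0.18. In all DESeq2 counts made here, a gene without an adjusted p was taken as not called. The number of members without one was not counted, so these DESeq2 counts cannot show that no member moved.

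Without female air insert 1 and female smoke insert 4, 13 of the 71 genes rose with smoke in females and none fell. That is 18.3% of the genes tested, close to the 21.9% of all genes called higher in the same fit, and 23.8% of all genes were called lower. The members' median log2 fold change was 0.16, against -0.00 over all genes, and 97.2% of the 71 had a positive sign. The groups did not overlap for 4 genes, 5.63% of the 71, where 15.3% of all genes had female smoke inserts wholly above the air inserts. After scaling by the library total, or with quantile scaling, 3 genes were called higher and Rpl22 lower. The members' median was then 0.08 with library total scaling, against -0.09 over all genes, and 0.05 with quantile scaling, against 0.02. The count was 5 (4 higher, 1 lower) without female air insert 5, 20 without insert 2, 22 without insert 3, and 8 without female air insert 6 or female smoke inserts 1, 5 (7 higher, 1 lower) or 6.

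In males 27 of the 71 genes rose and none fell in the fit without the 2 libraries. That is 38.0% of the genes tested, where 22.5% of all genes were called higher and 24.7% lower. The median was 0.18, and 95.8% of the 71 had a positive sign. Smoke inserts lay wholly above air inserts for 10 genes, 14.1% of the 71, where 11.0% of all genes did so. The 2 libraries are female, but the fit shares its estimate of spread over all groups, so the male calls changed with them while the male fold changes did not. The count was 9 under quantile scaling, where the members' median was 0.10 against 0.02 over all genes, and it was 13 without male smoke insert 3 and 16 without male air insert 5 or male smoke insert 1. Large-subunit genes made up 21 of the 27, from 43 tested (48.8%), and small-subunit genes 6, from 28 tested (21.4%). The female calls of the same fit had no such split, with 8 of 43 large-subunit genes (18.6%) and 5 of 28 small-subunit genes (17.9%). The difference between the subunits was not tested.

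Cells of both sexes shared 7 called genes, Rps2, Rpl29, Rpl41, Rplp0, Rpsa, Rpl18 and Rpl19, with 6 further genes called in females and 20 in males. These counts do not show a difference between the sexes. By limma the female minus male smoke response was called for none of the 71 genes without the 2 libraries, where 3.71% of all genes were called higher and 2.49% lower, and 1 had an unadjusted p under 0.05. With all 24 libraries limma also called none, against 0.694% of all genes higher and 0.34% lower, and 0 had an unadjusted p under 0.05. EdgeR and DESeq2 called none in either set of libraries. The interval of the difference at 95% lay within 0.5 of 0 on the log2 scale for 65 of the 71. That bound is wider than the largest female fold change in the fit without the 2 libraries, 0.47 for Rps2. The count of 65 therefore cannot show that the sexes responded alike.

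**Figure D3:**
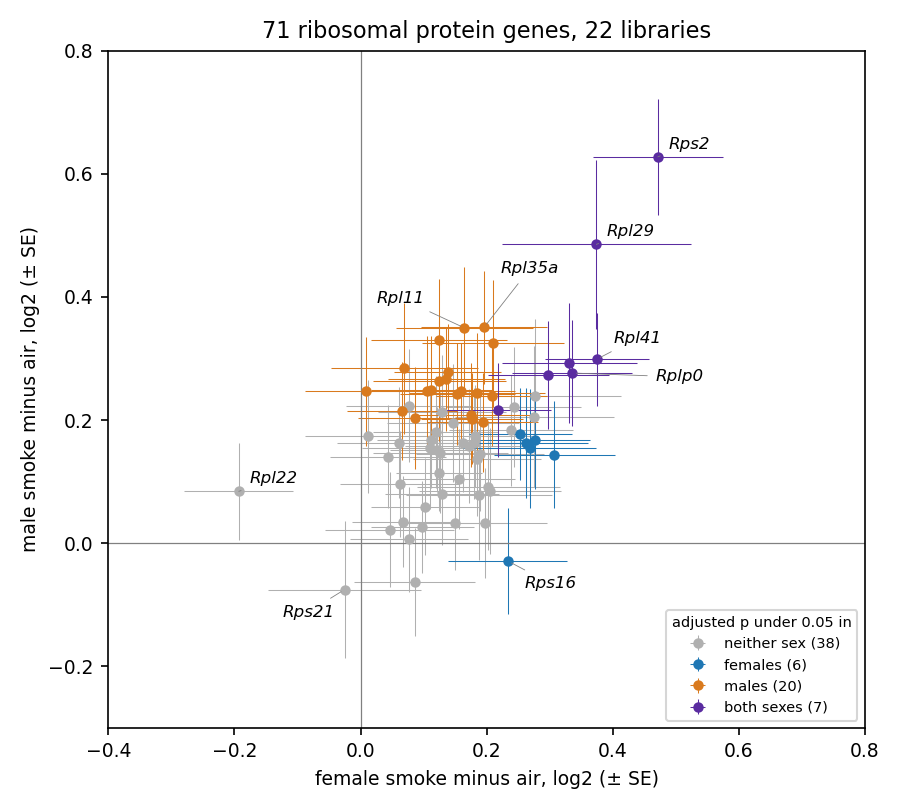
Log2 fold change of smoke against air in females (horizontal axis) and males (vertical axis) for the 71 genes tested, with standard errors as bars, in the fit without female air insert 1 and female smoke insert 4. Colours give the test in which a gene was called, and Rps2 stands farthest to the upper right at 0.47 and 0.63.

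Rps2 (chr17:24720063-24721927, plus strand, mm10), a small-subunit protein at the entry of the messenger RNA channel, had the largest fold change of the 71 genes in both sexes in the fit without the 2 libraries. Its normalised count was between 1283 and 1455 in the 5 remaining female air inserts, with a median of 1451. The 5 remaining female smoke inserts lay between 1507 and 2209, with a median of 2036. These 5 female smoke inserts were thus above these 5 female air inserts, and the log2 fold change was 0.47 ± 0.10 (SE, n = 5 per group; limma adjusted p = 0.00124).

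In males Rps2 ran from 1425 to 1590 in air, with a median of 1546, and from 1961 to 2851 in smoke, with a median of 2390. The male groups did not overlap, and the fold change was 0.63 ± 0.09 (SE, n = 6 per group; limma adjusted p = 3.54e-05). Rps2 passed the test under TMM, library total and quantile scaling in both sexes, with fold changes of 0.39 to 0.47 in females and 0.60 to 0.64 in males. The female response minus the male response was -0.16, with a 95% interval from -0.45 to 0.13. With all 24 libraries the same fold changes were 0.38 ± 0.27 and 0.63 ± 0.27 (SE), with limma adjusted p of 0.299 and 0.0988.

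The other decoding and entry proteins moved less. Rps3 (0.25 ± 0.09 in males, limma adjusted p = 0.024) and Rps23 (0.24 ± 0.08, adjusted p = 0.0218) rose in males, and Rps9 passed in neither sex, at 0.12 and 0.11. In females the values of Rps3 and Rps23 were 0.11 and 0.15, and neither passed.

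Of the stalk proteins, Rplp0 (chr5:115559467-115563729, plus strand, mm10) anchors the stalk and Rplp1 and Rplp2 form its arms. Rplp0 lay between 21416 and 31424 normalised counts in female air, with a median of 26477, and between 32014 and 35677 in female smoke, with a median of 33549. The 5 smoke inserts were above all 5 air inserts, with a log2 fold change of 0.34 ± 0.10 (SE; limma adjusted p = 0.00756). In males Rplp0 ran from 30356 to 33826 in air, with a median of 31610, and from 35253 to 41098 in smoke, with a median of 38718.

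The male groups did not overlap either, and the fold change of Rplp0 was 0.28 ± 0.09 (SE; limma adjusted p = 0.0133). Under quantile scaling its female adjusted p was 0.1. Rplp0 stood in the fit of all 24 libraries at 0.24 ± 0.22 in females (SE; limma adjusted p = 0.431) and 0.28 ± 0.22 in males (adjusted p = 0.393). Rplp1 rose in males by 0.24 ± 0.10 (adjusted p = 0.047) and was at 0.18 in females without passing. Rplp2 passed in neither sex, at 0.18 and 0.14.

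Rpl41 (chr10:128548110-128549168, minus strand, mm10) sits at the bridge between the subunits. It lay between 10635 and 14153 normalised counts in female air, with a median of 11422, and between 14388 and 16612 in female smoke, with a median of 15675. The male values were 11962 to 13705 in air, with a median of 12635, and 13940 to 17575 in smoke, with a median of 15357. Without the 2 libraries each smoke insert was above each air insert in both sexes. The log2 fold changes were 0.37 ± 0.08 in females (SE; limma adjusted p = 0.00131) and 0.30 ± 0.08 in males (adjusted p = 0.00321). Rpl41 passed under all 3 other scalings in both sexes. In the fit of all 24 libraries it stood at 0.03 ± 0.40 in females (SE; limma adjusted p = 0.962) and 0.30 ± 0.40 in males (adjusted p = 0.64).

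Rpl29 (chr9:106429411-106431568, plus strand, mm10) had low values, so its fold change rests on few reads. It lay between 92.6 and 106.0 normalised counts in female air, with a median of 98.1, and between 108.4 and 147.0 in female smoke, with a median of 131.5. Without the 2 libraries the female groups did not overlap. The log2 fold change was 0.37 ± 0.15 (SE; limma adjusted p = 0.0467), and it missed the threshold under library total scaling (adjusted p = 0.121). Male air inserts were between 83.9 and 104.6, with a median of 91.7, and male smoke inserts between 88.8 and 179.1, with a median of 126.8. The male groups overlapped through 1 smoke insert, and the fold change was 0.49 ± 0.14 (SE; adjusted p = 0.00686). Rpl29 stood in the fit of all 24 libraries at 0.39 ± 0.23 in females (SE; limma adjusted p = 0.191) and 0.49 ± 0.23 in males (adjusted p = 0.128).

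Rpsa, a small-subunit protein that also acts as a laminin receptor, rose by 0.33 ± 0.11 in females (SE; limma adjusted p = 0.0159) and by 0.29 ± 0.10 in males (adjusted p = 0.0183). Rpl18, a large-subunit protein, rose by 0.30 ± 0.10 in females (SE; limma adjusted p = 0.0163) and by 0.27 ± 0.09 in males (adjusted p = 0.0154). In females both lost the call under library total scaling (limma adjusted p of 0.0652 for Rpsa and 0.0783 for Rpl18) and quantile scaling (0.165 and 0.214), and in males Rpl18 lost it under quantile scaling (0.11). The female values in the fit of all 24 libraries were 0.11 ± 0.35 for Rpsa and 0.05 ± 0.34 for Rpl18 (SE; limma adjusted p of 0.834 and 0.924). Of the other genes of the mRNA exit side and platform, Rps14 rose in males by 0.28 ± 0.11 (adjusted p = 0.0334), whereas Rps28 stood at 0.09 in females and -0.06 in males, and Rps26 passed in neither sex. Among the genes of the small subunit called in females alone of the 2 tests were Rps19 at 0.26 and Rps16 at 0.23. Their male values were 0.16 and -0.03.

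At the rim of the exit tunnel, where the new peptide leaves, 2 of 7 genes tested (28.6%) rose in females and 3 (42.9%) in males, where 21.9% and 22.5% of all genes were called higher. Rpl19 rose in both sexes, by 0.22 in each, and lost its call under library total and quantile scaling in females and under quantile scaling in males. Rpl23a rose in females (0.28 ± 0.09, limma adjusted p = 0.0145), and Rpl35 (0.32 ± 0.10, adjusted p = 0.014) and Rpl39 (0.21 ± 0.08, adjusted p = 0.0485) rose in males.

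Rpl22 (chr4:152324436-152334082, plus strand, mm10), another tunnel protein that also binds viral and cellular RNA, was the member with the lowest female fold change in the fit without the 2 libraries. It lay between 4058 and 5631 normalised counts in female air, with a median of 4355, and between 3663 and 4637 in female smoke, with a median of 4090. The groups overlapped, and its fold change of -0.19 ± 0.09 (SE; limma adjusted p = 0.0734) missed the threshold, which it passed at -0.28 under library total scaling (adjusted p = 0.0134) and at -0.29 under quantile scaling (0.0166). In males it stood at 0.08, between 3918 and 4495 in air and between 4118 and 5114 in smoke. Its female minus male response of -0.28 had an unadjusted 95% interval from -0.52 to -0.03, the only one of the 71 that did not hold 0, and a limma adjusted p of 0.162. In the fit of all 24 libraries Rpl22 stood at -0.34 ± 0.29 in females (SE; adjusted p = 0.398), and Rps21 was lower at -0.41 ± 0.41 (adjusted p = 0.484).

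Of the genes that bind Mdm2, Rpl11 (chr4:136049354-136053393, minus strand, mm10) joins the 5S RNA with Rpl5. It ran from 5344 to 6685 normalised counts in male air, with a median of 5880, and from 6445 to 9539 in male smoke, with a median of 7310. The male groups overlapped, with a log2 fold change of 0.35 ± 0.10 (SE; limma adjusted p = 0.00719). In females it ran from 6167 to 8375 in air and from 7516 to 9497 in smoke, with a fold change of 0.16 ± 0.11 (adjusted p = 0.222). Rpl11 stood in the fit of all 24 libraries at -0.00 ± 0.32 in females and 0.35 ± 0.32 in males (SE; limma adjusted p of 0.995 and 0.462). Rpl23 rose in males by 0.20 ± 0.07 (adjusted p = 0.0297), and Rpl5 passed in neither sex, at 0.04 and 0.14.

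**Figure D4:**
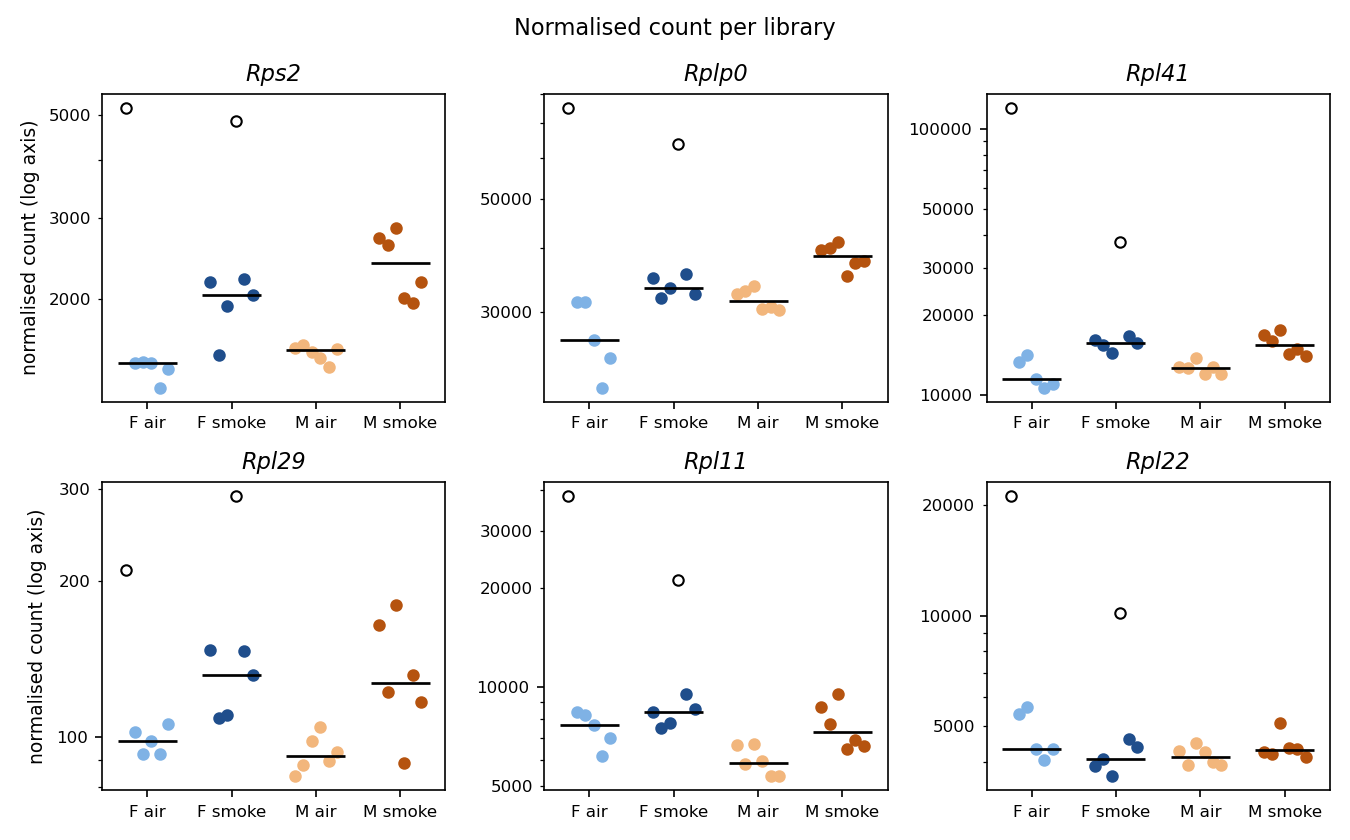
Normalised counts (vertical axis, log scale) of 6 ribosomal protein genes in each insert, with filled points for the 22 libraries, open points for female air insert 1 and female smoke insert 4, and a line at the median of the filled points. Both open points lie above the filled points of their group in all 6 panels, and among the filled points the smoke inserts of Rps2, Rplp0 and Rpl41 lie above the air inserts in both sexes. The open female air point lies above all female smoke points for these 3 genes.

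Genes whose mutation causes Diamond-Blackfan anemia, a failure of red cell formation, gave 1 called of 9 in females (11.1%), Rps19, and 3 in males (33.3%), where 21.9% and 22.5% of all genes were called higher. The male genes were Rpl11, Rpl35a (0.35 ± 0.09, limma adjusted p = 0.00406) and Rps24 (0.33 ± 0.10, adjusted p = 0.010). Of the 3 X-linked genes, Rpl10 and Rpl36a passed in neither sex and Rpl39 rose in males. The lowest male values were those of Rps21 at -0.08, Rps28 at -0.06 and Rps16 at -0.03, none of which passed.

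**Figure D5:**
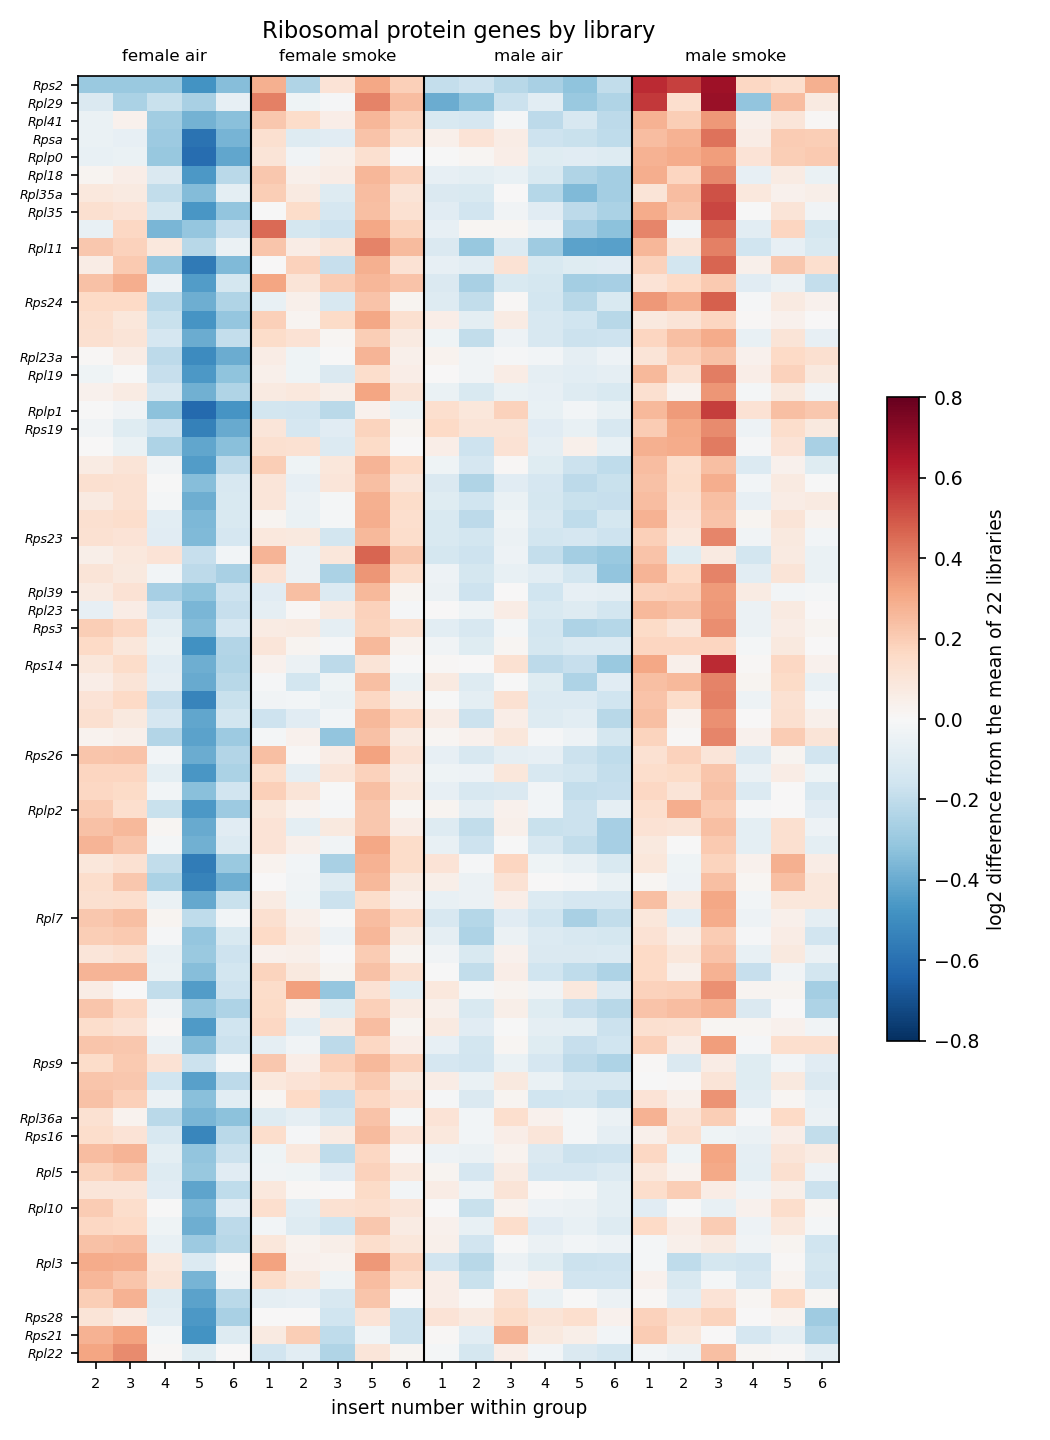
Log2 difference of each of the 71 genes tested (rows, ordered by the mean of their female and male fold changes, with symbols for genes named in the text) from its mean over 22 libraries (columns, by group and insert). Female air insert 5 is low and male smoke insert 3 high in most rows, with median deviations from their own group of -0.40 and 0.19.

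Between the sexes in air no member passed the limma test with all 24 libraries, where 20% of all genes were called higher in females and 19.0% lower. There 3 had an unadjusted p under 0.05, edgeR on the recovered reads called 22 and DESeq2 called 1, all higher in females. The members' median of 0.41 in that fit became -0.00 without the 2 libraries. In the latter fit 4 genes were higher in females and 4 lower, 5.63% in each direction, where 28.3% of all genes were called higher and 27.4% lower. No member had female air and male air inserts that did not overlap, against 24.4% of all genes with females wholly above and 23.7% wholly below.

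The genes higher in female air were Rpl11 (0.32 ± 0.10, limma adjusted p = 0.0124), Rpl3, the protein next to the peptidyl transferase centre (0.26 ± 0.08, adjusted p = 0.00812), Rpl7 (0.23) and Rps9 (0.21). The genes lower in female air were Rplp1 (-0.34 ± 0.10, adjusted p = 0.00903), Rps19 (-0.26), Rplp0 (-0.25) and Rps28 (-0.23). The split depended on scaling and on 1 library. It was 3 higher and 10 lower under library total scaling, 3 and 6 under quantile scaling, and 12 and 1 without female air insert 5. In that insert the members' median deviation was -0.40 from the median of all 6 female air inserts, insert 1 included.

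Genes that make or use ribosomes were counted in the same fits without the 2 libraries. There 21.9% of all genes were called higher and 23.8% lower in females, and 22.5% and 24.7% in males. Of 60 ribosome biogenesis factors, which process ribosomal RNA and assemble the subunits, 50 rose in females and none fell, with a median of 0.48, and 55 rose and 1 fell in males, with a median of 0.51. Utp4 (0.87 ± 0.16, limma adjusted p = 0.00028) and Bysl (0.86 ± 0.13) had the largest called female values and Rrp9 (1.09 ± 0.21) and Nop56 (0.92 ± 0.18) the largest called male values. With all 24 libraries 37 of these 60 rose in females and 34 in males. The median for these factors was thus 0.48 in females beside 0.16 for the ribosomal protein genes, a description with no test of the difference.

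Of 17 RNA polymerase I genes and regulators 9 rose in females and 10 in males, and none fell. Among them Myc, a transcription factor that drives ribosome production, rose by 1.45 ± 0.19 in females and by 0.85 ± 0.18 in males. Of 27 translation initiation factors 21 rose in females and 24 in males, among them Eif6, which keeps new large subunits from joining too early (0.97 ± 0.15 and 0.82 ± 0.14). Of 28 other genes with terminal oligopyrimidine tracts or a role in elongation 12 rose and 2 fell in females, and 15 rose and 1 fell in males. Of 27 mTOR pathway genes 7 rose and 1 fell in females, and 6 rose and 6 fell in males. The mTOR shares called higher, 25.9% in females and 22.2% in males, were close to the 21.9% and 22.5% of all genes. When all 24 libraries were fitted, 7 polymerase I genes, 10 initiation factors, 5 other oligopyrimidine or elongation genes and 5 mTOR pathway genes rose in females, and 4, 10, 4 and 3 in males. In that fit 15.5% of all genes were called higher in females and 9.76% in males.

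Of 78 genes for proteins of the mitochondrial ribosome, which is a separate machine, 33 rose and none fell in females, and 32 rose and 2 fell in males. Of these 78, 5 rose in females (6.41%) and 4 in males (5.13%) with all 24 libraries, below the shares of all genes called higher in that fit. Of 9 tested ribosomal proteins and paralogs that the naming rule leaves out, Rpl7l1 (0.43 ± 0.14) and Rpl36al (0.26 ± 0.07) rose in females and 4 rose in males, among them Rpl7l1 at 0.48 and Rps27l at 0.30, against 1 in each sex with all 24 libraries. The share of these lists called was 83.3% for biogenesis in females and 42.3% for the mitochondrial ribosome, where 21.9% of all genes were called higher in females and 22.5% in males.

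Markers of the cell types of the culture were also counted in the fit without the 2 libraries. There 21.9% of all genes were called higher and 23.8% lower in females, and 22.5% and 24.7% in males. Several of the counts below are near these shares, such as those of basal-cell markers higher in females and lower in males. Of 12 cycling-cell markers 8 rose in females and 4 in males, and their summed level ran from 6042 to 8190 normalised counts in female air, from 9756 to 34734 in female smoke, from 5018 to 7360 in male air and from 4806 to 11162 in male smoke, over all 6 inserts of each group. Of 11 ciliated-cell markers 11 fell in females and 7 in males, with summed levels of 13528 to 26491 in female air, 286.5 to 14008 in female smoke, 4382 to 8205 in male air and 469.1 to 5358 in male smoke. Female smoke insert 4 gave both the highest cycling sum and the lowest ciliated sum. With all 24 libraries 10 cycling-cell markers rose in females and 2 in males, and 11 ciliated-cell markers fell in females and 1 in males. In that fit 15.5% of all genes were called higher and 19.3% lower in females, and 9.76% and 12.2% in males. Without the 2 libraries, 3 of 10 basal-cell markers rose and 1 fell in females, and 4 rose and 2 fell in males. Basal sums were 177626 to 285193 in female air and 259442 to 459397 in female smoke. In males they were 189756 to 236103 in air and 156704 to 279070 in smoke. Of 9 tested club and secretory markers 5 fell in females, and 1 rose and 4 fell in males. The sums of all 10 secretory markers listed ran from 723226 to 1297030 in female air and 314676 to 704026 in female smoke. In males they ran from 598311 to 802136 in air and 160102 to 403938 in smoke. All 3 tested fibroblast markers, of 10 listed, fell in both sexes. The sums of all 10 were at most 1572 in female air, 176.2 in female smoke, 500.3 in male air and 144.0 in male smoke. Of 4 tested leukocyte markers, of 10 listed, 1 rose and 2 fell in females and 2 rose in males. The sums of all 10 leukocyte markers ran from 33638 to 131020 in female air and 5180 to 41787 in female smoke. In males they ran from 30325 to 40531 in air and 5780 to 44353 in smoke. The defining marker Tyrobp was at 0 in all 4 groups. Female air insert 1 gave the highest female air sum for basal, secretory and leukocyte markers, and female smoke insert 4 the highest basal and the lowest secretory and leukocyte sums of female smoke. In such bulk RNA, fewer cells of a type and less RNA per cell cannot be told apart, and the part of these shifts in the ribosomal protein values was not tested.

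The authors' deposited tables, with their sign turned to smoke minus air, gave 46 of 74 ribosomal protein genes higher in males and none lower, with a median log2 fold change of 0.19, where 21.9% of all genes with an adjusted p in that deposited table were called higher and 20.1% lower. In the authors' deposited table Rps2 stood at 0.65 (adjusted p = 4.65e-09) and Rpl29 at 0.52 (adjusted p = 0.00393) in males. The authors' deposited female table gave an adjusted p for 14 of the 75 genes, none of them called, where 11.9% of all genes with an adjusted p were called higher and 15.4% lower. In the authors' deposited table for the sexes in air, 14 of the 75 had an adjusted p and none was called, against 20.7% of all genes called higher in females and 15.9% lower.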

How the data were processed

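The starting table holds normalised counts per gene and library, a signal that the authors made with DESeq2 before deposit, per the labels. The submitters' processing notes also name FastQC 0.11.9, Trimmomatic 0.38.0 and HTSeq with GRCm38 and mm10, while neither aligner nor strandedness is given in the sources used here. The NEBNext Ultra II kit served for library preparation, per the labels' protocols. Within each column the values fell on multiples of 1 step (tolerance 0.001 reads), so whole reads were recovered for 23 libraries. For male smoke insert 5 this was not claimed, and edgeR and DESeq2 left it out. The authors' deposited comparison tables hold, per the file headers, log2 fold changes with standard errors, a Wald score, and p-values with adjusted p-values. Other values deposited are gene positions on mm10, read as transcript lengths and exon overlaps.

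Genes with a mean of at least 10 over 24 libraries were tested (13549 of 25239) with limma 3.58.1 (R 4.3.3) on log2 of the normalised count plus 1, 1 fit over 4 groups with a mean-variance trend, two-sided contrasts and Benjamini-Hochberg adjustment over all genes. The fit without female air insert 1 and female smoke insert 4 has the same standing. EdgeR 4.0.16 and DESeq2 1.42.0 on recovered reads were alternatives, beside other scalings, pseudocounts of 0.5 and 5, filters, a lowess correction for transcript length, array weights, a block for the insert number, a fit of the compared groups alone, inserts 1 to 3 against 4 to 6, and each library left out. The fit was also run on simulated counts with the same spread setting for all genes and no library with a length trend. That run therefore does not bear on how the 2 libraries change the calls. The members, gene lists and tests were chosen with earlier results of these data known. Named in the text are the members with the 5 highest and 5 lowest fold changes and the 5 smallest adjusted p per comparison, examples by role, and the 2 largest called of each other list. Values of some members are not reported here by name. Promoter entries were matched by symbol. No table for proteins was used here.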

Additional observations from a re-analysis of the deposited data

Results flagged for a closer look

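Dixon's test for 1 outlying sample was applied to the share of counts and to 6 named genes in each group of 6, and by chance about 1 in 20 groups is past its 95% critical value. Female air insert 1 was the outlying sample of its group for the share of normalised counts (13.4%) and for Rps2 (5197 normalised counts), Rpl41 (120716), Rplp0 (75191), Rpl29 (210.0), Rpl22 (21151) and Rpl11 (38285). Female smoke insert 4 was the outlying sample for the share (7.02%) and for Rps2 (4862), Rpl41 (37656), Rplp0 (63820), Rpl29 (291.3), Rpl22 (10141) and Rpl11 (21278). Male smoke insert 3 was outlying for Rpl22 at 5114 normalised counts, where the next male smoke insert held 4370. Over all 284 groups of 6 values (71 genes in 4 groups), 143 held an outlying sample, which was female air insert 1 for 70 genes, female smoke insert 4 for 70, male air insert 3 for 2 and male smoke insert 3 for 1.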

How the results depend on the processing

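With all 24 libraries, when none of the 71 genes was called in any comparison, the counts called in females, males and between the sexes in air became 13, 27 and 8 without the 2 libraries, 8, 7 and 7 with the lowess correction for transcript length, 9, 28 and 10 with both, and 27, 10 and 17 with array weights. Testing only the groups compared gave 35 in males. Between the sexes in air, quantile scaling gave 1, edgeR 22 and DESeq2 1. Leaving out 1 library gave 0 to 18 in females, the 18 without female air insert 1, 0 to 1 in males and 0 to 2 between the sexes in air. In the air comparison Rplp1, Rps19 and Rpl23a were not called with all libraries and turned to called lower values, Rplp1 to -0.34 without the 2 libraries, -0.30 with the lowess correction added and -0.40 with array weights, Rps19 to -0.26, -0.24 and -0.30, and Rpl23a to -0.20 with the lowess correction, -0.15 with both and -0.24 with array weights. The cause was not tested.

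Without the 2 libraries, library total and quantile scaling gave 4 calls in females each (3 higher, 1 lower), array weights 40 and only the groups compared 8. In males quantile scaling gave 9 and array weights 17. Between the sexes in air library total scaling gave 13 and array weights 22, and array weights gave 1 call for the female minus male response. Leaving out 1 more library gave 5 to 22 calls in females. The count was 20 without female air insert 2, 22 without insert 3, 5 (4 higher, 1 lower) without insert 5, and 8 without female air insert 6 or female smoke inserts 1, 5 (7 higher, 1 lower) or 6. It gave 13 to 35 in males, with 13 without male smoke insert 3 and 16 without male air insert 5 or male smoke insert 1, 6 to 13 between the sexes in air, and 0 for the response difference. Library total scaling moved the median of all genes in the air comparison with 24 libraries to -0.11.

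With the insert number as a replicate block 0 members were called with all libraries in each comparison, and 8 in females, 26 in males, 8 between the sexes in air and 0 for the response difference without the 2 libraries. The labels do not say that a number pairs inserts, and correlations of same-numbered inserts ran from -0.24 to 0.37, with 8 of 18 pairs over 0.1 and 3 of 18 best paired with their own number. Inserts 4 to 6 minus 1 to 3, a term chosen after seeing the data, had a members' median of -0.13, with 0 members called.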
